A study of Homo sapiens with 10 samples.

Results

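Neurotransmitter receptor genes were examined in the human embryonic stem cell (ESC) line H9 and in neuroectodermal cells (NECs) harvested after 7 days of differentiation from it. The group comprised the 67 of 31017 genes in the RNA-seq count table whose symbols name a subunit of a GABA-A, GABA-B, AMPA, kainate, delta, NMDA, glycine or nicotinic acetylcholine receptor, or a metabotropic glutamate receptor. Both cell types are unmodified cultures of 1 cell line, and they share its genotype. ESCs were kept in Pluripro medium on its matrix, and NECs were the bulk product of an earlier published differentiation protocol. Each cell type had 2 biological replicates for RNA-seq and 2 for Promoter Capture Hi-C (PCHi-C), a method that enriches Hi-C libraries for ligation products of promoter fragments. The labels do not say whether the replicates came from separate cultures, so p-values measure only the spread between these samples, which may be technical.

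Fast inhibition in the nervous system runs through chloride channels gated by GABA or glycine, and fast excitation through cation channels gated by glutamate or acetylcholine. GABA-B and metabotropic glutamate receptors are slower and couple to G proteins. Each channel is assembled from several subunits, encoded by families of paralogous genes, some of which lie in clusters. In mature neurons the choice of subunits sets the conductance and pharmacology of the channel, and some subunits are also known from proliferating cells and from tissues outside the brain.

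RNA-seq libraries held 19234087 and 25356382 counts on genes for ESCs and 20793224 and 24323762 for NECs. Markers followed the labels: 9 of 10 pluripotency genes were called lower in NECs and 8 of 10 neuroectoderm genes higher. Of 13 markers of postmitotic neurons 6 were called higher, and their summed level went from 417 and 421 CPM (counts per 1000000 counts of the TMM-scaled library) in ESCs to 926 and 928 in NECs. The microtubule protein gene MAP2 carried much of that difference, from 39.3 and 11.4 to 415 and 461 CPM, and without it the sums were 378 and 409 CPM in ESCs and 512 and 467 in NECs. None of these neuronal markers was at 0 in either cell type. NEC replicate 2 had more pluripotency RNA than NEC replicate 1, with all 10 markers higher and a sum of 1300 against 915 CPM. NEC replicate 1 had more neural crest RNA, with 9 of 10 markers higher and a sum of 254 against 130 CPM. Of the other lists, 2 glial markers were called higher and 2 lower of 10, 6 neural crest markers higher and 1 lower of 10, 7 mesendoderm markers lower of 8 tested, and 1 skeletal muscle marker lower of 4 tested. ESC and NEC libraries were sequenced in different lanes, so lane and cell type cannot be told apart.

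To show promoters of well-counted called genes, whatever the size of the change, 6 sequences are printed. The sequences belong to receptor genes that were called (by the criteria given below), reached at least 10 CPM in a cell type and had a RefSeq promoter. They are RefSeq promoters in GRCh38.p14, from 250 bases before to 50 bases after an annotated start, read 5′ to 3′ on the strand of the gene, with each CG dinucleotide in capitals. RefSeq promoters were found for 47 of the 67 genes, and for GRIA1 the first of 2 is shown. The regions are chr5:170783475-170783774 (plus strand) for GABRP, chrX:152637645-152637944 (plus) for GABRQ, chr16:10182018-10182317 (minus) for GRIN2A, chr7:86643659-86643958 (plus) for GRM3, chr5:153490420-153490719 (plus) for GRIA1 and chr1:37034466-37034765 (minus) for GRIK3. The first 3 belong to genes lower in NECs and the last 3 to genes higher in NECs.
GABRP: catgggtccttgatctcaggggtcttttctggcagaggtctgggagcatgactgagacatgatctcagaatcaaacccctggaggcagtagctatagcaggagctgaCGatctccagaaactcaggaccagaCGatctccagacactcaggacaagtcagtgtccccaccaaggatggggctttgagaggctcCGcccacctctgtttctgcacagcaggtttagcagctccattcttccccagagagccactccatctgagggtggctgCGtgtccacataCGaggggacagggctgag
GABRQ: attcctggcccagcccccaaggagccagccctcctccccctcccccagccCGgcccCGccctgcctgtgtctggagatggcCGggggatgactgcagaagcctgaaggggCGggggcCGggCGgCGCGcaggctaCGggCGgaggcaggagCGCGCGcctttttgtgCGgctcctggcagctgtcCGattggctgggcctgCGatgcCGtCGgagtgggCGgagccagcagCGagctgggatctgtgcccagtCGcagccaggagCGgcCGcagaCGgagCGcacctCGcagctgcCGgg
GRIN2A: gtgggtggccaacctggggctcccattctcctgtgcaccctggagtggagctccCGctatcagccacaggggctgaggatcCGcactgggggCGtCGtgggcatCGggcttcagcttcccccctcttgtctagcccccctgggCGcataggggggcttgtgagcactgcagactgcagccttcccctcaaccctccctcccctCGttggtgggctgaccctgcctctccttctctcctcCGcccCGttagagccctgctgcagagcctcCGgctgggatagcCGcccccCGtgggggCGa
GRM3: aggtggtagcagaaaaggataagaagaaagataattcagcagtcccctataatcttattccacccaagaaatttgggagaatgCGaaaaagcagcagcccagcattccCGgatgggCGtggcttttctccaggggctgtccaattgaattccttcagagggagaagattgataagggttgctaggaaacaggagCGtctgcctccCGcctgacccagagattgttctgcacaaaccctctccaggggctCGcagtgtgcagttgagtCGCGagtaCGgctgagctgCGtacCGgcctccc
GRIA1: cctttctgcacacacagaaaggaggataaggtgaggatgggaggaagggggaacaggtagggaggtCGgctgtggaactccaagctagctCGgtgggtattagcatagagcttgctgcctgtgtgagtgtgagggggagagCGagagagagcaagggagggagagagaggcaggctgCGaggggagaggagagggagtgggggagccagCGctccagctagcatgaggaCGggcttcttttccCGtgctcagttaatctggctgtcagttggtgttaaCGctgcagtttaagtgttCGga
GRIK3: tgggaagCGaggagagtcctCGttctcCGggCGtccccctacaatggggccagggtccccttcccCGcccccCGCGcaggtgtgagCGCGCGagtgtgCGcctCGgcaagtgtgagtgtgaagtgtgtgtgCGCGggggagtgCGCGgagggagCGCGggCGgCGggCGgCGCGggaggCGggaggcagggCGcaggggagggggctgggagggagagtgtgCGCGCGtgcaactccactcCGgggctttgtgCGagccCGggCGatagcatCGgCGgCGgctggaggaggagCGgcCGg

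The number of CG dinucleotides was 5 for GABRP, 27 for GABRQ and 13 for GRIN2A, the genes lower in NECs, and 11 for GRM3, 9 for GRIA1 and 37 for GRIK3, the genes higher in NECs. The median was 14 over the 67 receptor promoters in the table as over all 35116 promoters. The GC box GGGCGG, searched on both strands, occurred 5 times in the GABRQ, 3 times in the GRIK3 and 2 times in the GRIN2A promoter and once in that of GABRP. It was found in 35 of the 67 receptor promoters (52.2%), which belong to 28 of the 47 genes, and in 45.0% of all promoters. TATAAA was absent from the 6 printed windows but present in 6 of the 67 receptor promoters (8.96%), each of another gene, and in 11.5% of all promoters. The octamer ATGCAAAT, the element read by POU-domain factors, was in none of the 47 genes' windows and in 1.77% of all promoters.

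A core of the RE1 element, the site of the neuronal gene repressor REST, was searched on both strands as 15 letters with 2 free positions. It was present in 18 of all 35116 promoters (0.0513%), of which 1 belonged to a receptor gene, GRIA2, whose product controls the calcium permeability of AMPA receptors. The match is on the opposite strand of the gene, in chr4:157220377-157220421 (GRCh38.p14), and is shown in capitals with 15 bases on each side.
GRIA2 RE1: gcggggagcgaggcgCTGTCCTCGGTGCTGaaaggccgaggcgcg
GRIA2 had 0 and 0 counts in the ESC libraries and 2 and 3 in the NEC libraries, too few to be tested.

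To ask how receptor transcripts changed between ESCs and NECs, counts were compared with edgeR's quasi-likelihood test, fitted to the 17564 genes left by a filter on low values. A gene was called higher or lower where its p, adjusted by the Benjamini-Hochberg method, was under 0.05 and its fold change beyond 1.5 on the log2 scale (log2FC, NECs over ESCs). Of the 67 receptor genes 45 were tested, 12 (26.7%) were called higher in NECs and 10 (22.2%) lower, where 11.4% of all tested genes were called higher and 9.68% lower. The median log2 fold change of the 45 was -0.07, against 0.01 for all tested genes. Another 7 genes passed on the adjusted p alone, all of them higher in NECs, which brought the genes past that p to 19 higher and 10 lower, where 31.5% and 29.7% of all tested genes were. In bulk RNA, fewer cells of a type and less RNA per cell cannot be told apart.

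Of the tested genes, 35 passed the filter in both cell types, 3 through ESCs only, 6 through NECs only and 1 through libraries of both together. The other 22 genes were not tested, and 10 of them had at most 3 counts in every library: GABRA6, GABRB1, GABRG1, GLRA3, GRM5, CHRNA1, CHRNA2, CHRNA6, CHRNB3 and GRIA2. GABRA6, a subunit of cerebellar granule cells, had 0 counts in all 4 libraries, which allows up to 3 counts in each. Summed over the group, the level was 941 and 1020 CPM in the ESC and 414 and 523 CPM in the NEC libraries. GABRP made up 40.0% of the ESC sum and 0.111% of the NEC sum, and GABBR1 and GRIK5 made up 36.2% and 12.5% of the NEC sum, so the leading receptor transcripts differed between the cell types.

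**Figure D1:**
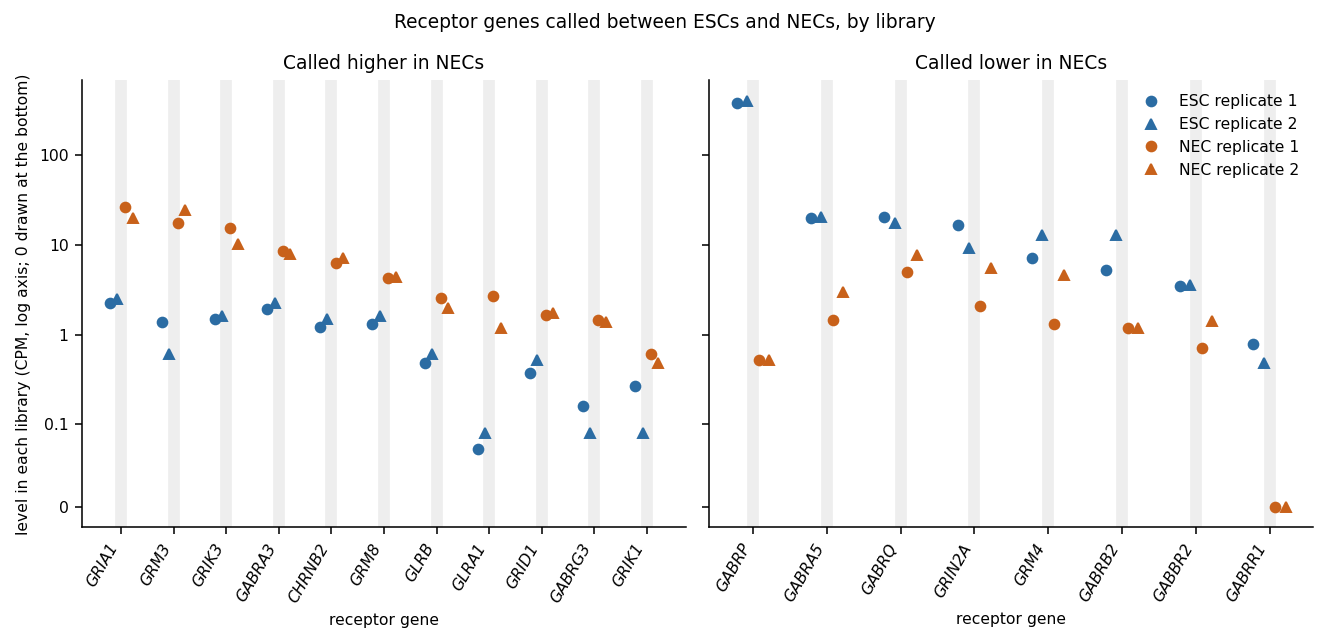
Level in each library of 19 of the called receptor genes, in CPM on a log axis (0 is drawn at the bottom), with circles for replicate 1 and triangles for replicate 2, ESCs in blue and NECs in orange. The 2 libraries of one cell type lie apart from the 2 of the other for every gene drawn, and GABRP has the widest gap. The genes were chosen by their calls in these same libraries, so their separation is not a further result.

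GABA-A receptor genes had a median log2 fold change of -2.11 over the 10 tested of 18, and the 5 genes called lower and 2 called higher that are described here follow. GABRP (chromosome 5, 170190354 to 170241051, GRCh37) encodes the pi subunit, best known from the uterus and other tissues outside the brain. It had 7179 and 9975 counts in the ESC libraries and 11 and 13 in the NEC libraries, and a log2FC of -9.54 (± 0.15 SE, edgeR adjusted p = 2.82e-06). Per kilobase of exon it was first of all receptor genes in both ESC libraries and at rank 33 and 35 in the NEC libraries. The microRNA gene MIR4454 overlaps GABRP on the opposite strand and is listed with 2243 and 2982 counts in ESCs and 1 and 10 in NECs; because counting ignored strand, the reads of both cannot be told apart.

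The beta subunits form the channel together with alpha subunits and carry part of the GABA binding site. GABRB2 had 98 and 315 counts in ESCs and 25 and 29 in NECs, a log2FC of -2.94 (± 0.47 SE, edgeR adjusted p = 0.00217) that was -2.15 without ESC replicate 2. The cell types did not overlap, and both NEC libraries were low. GABRB1 had at most 1 count in a library.

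GABRA5, an alpha subunit of extrasynaptic receptors in the hippocampus, lies in a cluster on chromosome 15 and overlaps another counted gene on the opposite strand. Because counting ignored strand, the reads of both cannot be told apart. GABRA5 was listed with 380 and 500 counts in ESCs and 31 and 74 in NECs. Its log2FC of -3.16 (± 0.30 SE, edgeR adjusted p = 0.000314) was -3.80 without NEC replicate 2. In the same cluster GABRG3, a gamma subunit, had 3 and 2 counts in ESCs and 31 and 34 in NECs and went the other way (edgeR log2FC 3.55 ± 0.46 SE, adjusted p = 0.000991), with a smaller value of 2.79 after DESeq2 shrinkage. The counts listed for GABRA5 and GABRG3 thus changed in opposite directions.

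The cluster on the X chromosome was also mixed. GABRQ, the theta subunit, had 381 and 434 counts in ESCs and 106 and 192 in NECs (edgeR log2FC -1.56 ± 0.23 SE, adjusted p = 0.00167), and its call was lost with scaling by library size alone, where it was -1.5, and without ESC replicate 1 (-1.48) or NEC replicate 1 (-1.27). GABRA3, an alpha subunit prominent in the developing brain, had 36 and 56 counts in ESCs and 180 and 196 in NECs (edgeR log2FC 1.96 ± 0.22 SE, adjusted p = 0.000562). The epsilon subunit GABRE, of the same cluster, had 41 and 47 counts in ESCs and 45 and 47 in NECs. Its log2 fold change of -0.02 (SE 0.27) did not pass the test.

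GABRR1 encodes a rho subunit of the retina. It had 15 and 12 counts in ESCs and 0 and 0 in NECs, which makes it at least 4.75-fold lower in NECs with a floor of 3 counts in each library (edgeR adjusted p = 0.00324). Its neighbour GABRR2 had 0 and 2 counts in ESCs and 6 and 5 in NECs and was not tested. GABRA2, an alpha subunit, had 70 and 8 counts in ESCs and 15 and 12 in NECs, so that the ESC replicates lay on both sides of the NEC replicates. It was not called (edgeR log2FC -1.71 ± 0.99 SE, adjusted p = 0.177), and its log2 fold change was 0.84 without ESC replicate 1 and -2.65, past the threshold, without ESC replicate 2.

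Other GABA-A subunits were scarce. GABRD, the delta subunit of extrasynaptic receptors, had 7, 8, 5 and 9 counts over the ESC and then the NEC libraries, and GABRA4 had 0, 5, 1 and 0. Neither was tested, and neither reached 1 CPM.

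**Figure D2:**
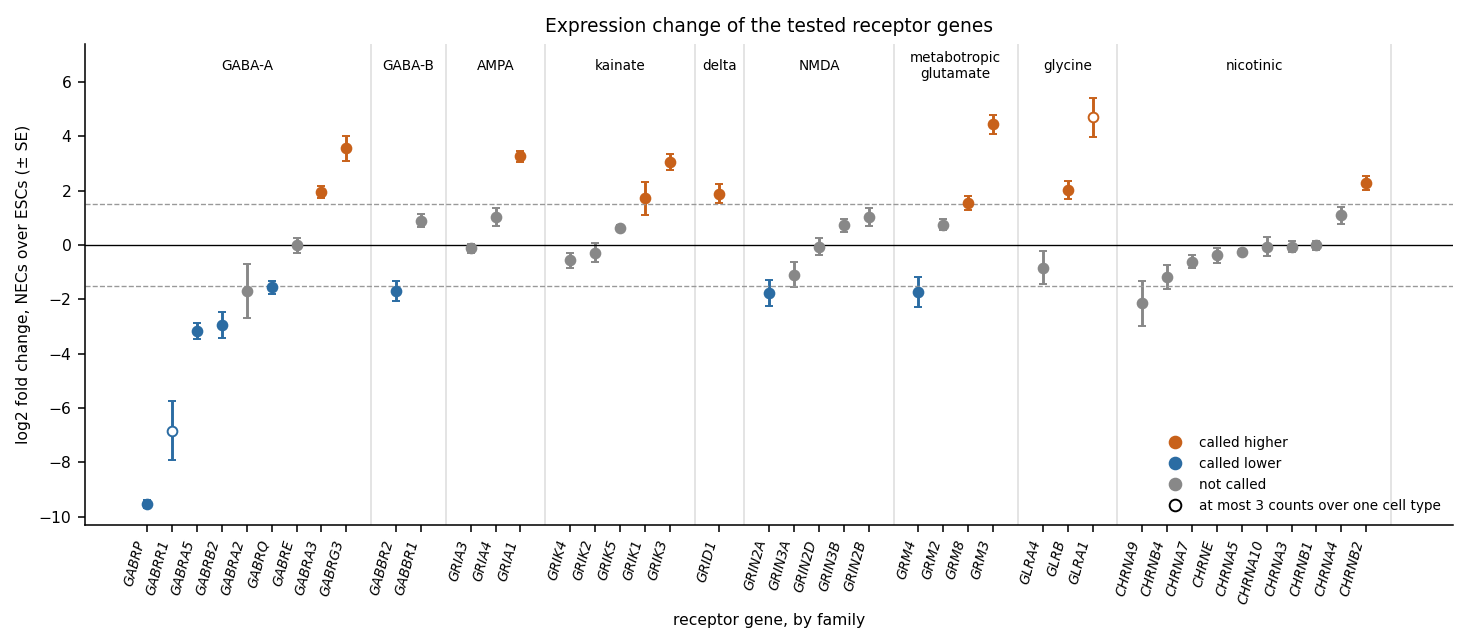
Log2 fold change (NECs over ESCs) with its SE from edgeR for 42 of the tested receptor genes, by family; orange, called higher; blue, called lower; grey, not called; dashed lines, a log2 fold change of 1.5 in either direction. Open circles are genes with at most 3 counts over one cell type, whose fitted value depends on the prior count. Called GABA-A genes lie mostly below 0, down to -9.54 for GABRP, while the called AMPA, kainate, glycine and nicotinic genes lie above 0.

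GABA-B receptors require both of their subunits, and the transcripts of these differed in direction. GABBR2, the subunit that couples to G proteins, had 65 and 89 counts in ESCs and 15 and 35 in NECs and was called lower (edgeR log2FC -1.71 ± 0.37 SE, adjusted p = 0.00725). The call was lost without NEC replicate 1, at -1.30, and the value was -2.32 without NEC replicate 2. GABBR1, the ligand-binding subunit, had 1438 and 2635 counts in ESCs and 2844 and 5091 in NECs. Its log2FC of 0.89 (± 0.24 SE, edgeR adjusted p = 0.0166) passed on p but not on size, and per kilobase it was the most abundant receptor transcript of NECs.

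AMPA receptors carry most fast excitation, and 1 of their 3 tested genes was called. GRIA1 (chromosome 5, 152869175 to 153193240) had 42 and 62 counts in ESCs and 558 and 485 in NECs, a log2FC of 3.26 (± 0.21 SE, edgeR adjusted p = 8.14e-05). GRIA4, a subunit of early development, had 28 and 27 counts in ESCs and 65 and 53 in NECs (edgeR log2FC 1.02 ± 0.33 SE, adjusted p = 0.0357), below the size threshold. GRIA3 was at 13.0 ± 1.65 CPM (mean ± SD over n = 2 libraries, as in later values of this form) in ESCs and 11.9 ± 1.57 in NECs, a difference smaller than the spread between replicates.

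Kainate receptor genes were all 5 tested, with 2 called higher and none lower. GRIK3 had 28 and 40 counts in ESCs and 332 and 255 in NECs (edgeR log2FC 3.05 ± 0.28 SE, adjusted p = 0.000259). GRIK1 had 5 and 2 counts in ESCs and 13 and 12 in NECs (edgeR log2FC 1.71 ± 0.59 SE, adjusted p = 0.0434). The GRIK1 call was lost under 8 of 11 alternatives, with adjusted p between 0.0396 and 0.354 over all of them, and its value was 2.65 without ESC replicate 1 and 1.02 without ESC replicate 2. GRIK1 also overlaps BACH1, which had 909 to 1342 counts. GRIK5, a subunit that forms channels only with other kainate subunits, was at 37.8 ± 2.42 CPM in ESCs and 58.7 ± 0.422 in NECs, passing on p (0.63 ± 0.09 SE, edgeR adjusted p = 0.00168) but not on size. GRIK2 and GRIK4 were at 1.02 ± 0.06 and 2.79 ± 0.28 CPM in ESCs and at 0.84 ± 0.21 and 1.89 ± 0.44 in NECs, and neither passed the test.

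The delta receptors are orphan relatives of the glutamate channels that bridge synapses through cerebellin proteins. Of these, GRID1 had 7 and 13 counts in ESCs and 35 and 43 in NECs (edgeR log2FC 1.88 ± 0.35 SE, adjusted p = 0.00412). The cerebellin ligand CBLN1 was called lower, from 364 and 439 counts in ESCs to 82 and 64 in NECs (edgeR log2FC -2.53 ± 0.22 SE, adjusted p = 0.000221).

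NMDA receptors need the obligatory subunit GRIN1, which had 0 and 2 counts in ESCs and 3 and 8 in NECs and was not tested. Its partner GRIN2A, which predominates in the mature forebrain, had 318 and 230 counts in ESCs and 44 and 137 in NECs and was called lower (edgeR log2FC -1.76 ± 0.48 SE, adjusted p = 0.018). The value was -1.30 without ESC replicate 1 and -1.22 without NEC replicate 1, under the size threshold, and -2.66 without NEC replicate 2. GRIN2B, the partner that predominates before birth, had 12 and 21 counts in ESCs and 33 and 38 in NECs (edgeR log2FC 1.03 ± 0.33 SE, adjusted p = 0.0315).

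Among the other NMDA genes, GRIN3B was at 2.52 ± 0.25 CPM in ESCs and 4.15 ± 0.54 in NECs (edgeR log2FC 0.72 ± 0.25 SE, adjusted p = 0.0439), and it overlaps the far more abundant C19orf6 on the opposite strand. GRIN2D was at 3.81 ± 0.30 and 3.65 ± 1.32 CPM and did not pass the test. GRIN3A, a subunit that lowers calcium entry, had 20 and 23 counts in ESCs and 14 and 7 in NECs and was not called (edgeR adjusted p = 0.0798). GRIN2C had between 4 and 7 counts in each library.

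Metabotropic glutamate receptors had calls in both directions. GRM3, which lowers cyclic AMP and is known from glia and neurons, had 26 and 15 counts in ESCs and 375 and 598 in NECs (edgeR log2FC 4.44 ± 0.36 SE, adjusted p = 0.000169; 5.07 without ESC replicate 1). Its gene (chromosome 7, 86273230 to 86494200) overlaps AC005009.2 on the opposite strand, listed with 5, 3, 53 and 73 counts. GRM8, of the presynaptic class, had 25 and 40 counts in ESCs and 91 and 107 in NECs (edgeR log2FC 1.54 ± 0.26 SE, adjusted p = 0.00273), close to the size threshold, and its call was lost with shrunken DESeq2 fold changes (1.44), a prior count of 2 (1.48) and without ESC replicate 1 (1.38).

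GRM4, also of the presynaptic class, went the other way from GRM3 and GRM8, with 135 and 314 counts in ESCs and 28 and 115 in NECs (edgeR log2FC -1.72 ± 0.55 SE, adjusted p = 0.0324). It was -1.25 without ESC replicate 2, -1.09 without NEC replicate 1 and -2.93 without NEC replicate 2. GRM2 was at 5.22 ± 0.18 CPM in ESCs and 8.80 ± 0.86 in NECs (edgeR log2FC 0.75 ± 0.19 SE, adjusted p = 0.0132), below the size threshold. GRM5, GRM6 and GRM7 had between 0 and 12 counts in a library and were not tested.

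Glycine receptors inhibit neurons of the spinal cord and brainstem, and 2 of their 3 tested genes were called higher. GLRA1, the adult alpha subunit, had 1 and 2 counts in ESCs and 58 and 29 in NECs, a ratio of 27.5 (exact 95% interval 9.09 to 136.0, counting error only; edgeR adjusted p = 0.00172). GLRB, the subunit that binds the scaffold gephyrin, had 9 and 15 counts in ESCs and 54 and 49 in NECs (edgeR log2FC 2.03 ± 0.34 SE, adjusted p = 0.0027). The embryonic alpha subunit GLRA2 had 0 and 2 counts in ESCs and 7 and 2 in NECs, and GLRA4 had 14, 11, 3 and 12 and was not called.

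Of the 10 tested nicotinic acetylcholine receptor genes, 1 was called higher and none lower. Over all tested genes 11.4% were called higher and 9.68% lower, so no trait of the family is read from this count. CHRNB2, the main beta subunit of brain nicotinic receptors, had 23 and 37 counts in ESCs and 133 and 175 in NECs (edgeR log2FC 2.28 ± 0.25 SE, adjusted p = 0.000535). Its usual partner CHRNA4 had 19 and 20 counts in ESCs and 46 and 42 in NECs, with a log2FC of 1.09 (± 0.32 SE, edgeR adjusted p = 0.025) under the size threshold.

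The cluster of CHRNA5, CHRNA3 and CHRNB4 on chromosome 15, which encodes the ganglionic receptor, held no call. CHRNA5 was at 24.7 ± 0.34 CPM in ESCs and 20.6 ± 2.27 in NECs, and CHRNA3, whose gene overlaps that of CHRNA5, at 4.82 ± 0.23 and 4.61 ± 0.44. CHRNB4 had 59 and 89 counts in ESCs and 46 and 21 in NECs, and its log2FC of -1.18 (± 0.43 SE, edgeR adjusted p = 0.0528) was -1.97 and called without NEC replicate 1. CHRNB1, of the muscle receptor, was at 15.9 ± 2.07 CPM in ESCs and 15.7 ± 0.62 in NECs.

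CHRNA7, which forms channels on its own, was at 7.64 ± 0.69 CPM in ESCs and 5.01 ± 1.06 in NECs (edgeR log2FC -0.61 ± 0.23 SE, adjusted p = 0.0524). The counted gene model spans several other genes and its partial copy CHRFAM7A shares sequence with it, so these counts are uncertain. CHRNE and CHRNA10 were at 2.91 ± 0.52 and 1.29 ± 0.05 CPM in ESCs and 2.24 ± 0.14 and 1.22 ± 0.40 in NECs, and both overlap abundant genes, MINK1 with 1631 to 2171 and NUP98 with 3322 to 5335 counts. CHRNA9 had 10 and 16 counts in ESCs and 0 and 6 in NECs and was not called (edgeR adjusted p = 0.0617). The muscle subunits CHRND and CHRNG had at most 4 counts in any library.

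Compared per kilobase of exon, the order of levels in ESCs began with GABRP, at 82.3 and 87.3 CPM per kilobase in the replicates. GABBR1, at 9.01 and 12.6, did not overlap with it. CHRNA5, at 6.89 and 6.75, and GRIK5, at 6.31 and 6.91, overlapped. In NECs the order began with GABBR1 at 15.7 and 24.4 and GRIK5 at 10.3 and 10.2, which did not overlap, before CHRNA5 at 5.24 and 6.13. GRM3 came next at 3.92 and 5.42, a range that overlapped that of CHRNA5. GRIA1 was at 3.35 and 2.52 in NECs.

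Of the 10 genes called lower, 9 had a higher CPM in the second NEC library (replicate 2) than in the first, as had all 10 pluripotency markers. Of the 12 called higher, 4 had, and the other 8 were higher in NEC replicate 1, as were 9 of 10 neural crest markers. The same shares were not computed over all called genes, so these counts are not read as a trait of receptor genes. The part of these differences between replicates in the calls was not tested. Without NEC replicate 1, 10 genes were called higher and 9 lower, and without NEC replicate 2, 11 were called higher and 11 lower.

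To set the receptors beside the genes that make, move and anchor their ligands and subunits, 8 lists of 93 further genes in the table were read from the same fit. Of the 75 tested, 21 (28.0%) were called higher and 10 (13.3%) lower, beside 11.4% and 9.68% of all tested genes, with a median log2 fold change of 0.56 against 0.01 for all. GABA metabolism had 2 of 5 tested genes higher and 1 lower: ABAT (log2FC 2.94, SE 0.28) and ALDH5A1 (1.86, SE 0.20), which break GABA down, were higher, and GAD1 (-2.58, SE 0.23), which makes it, was lower. GAD1 had 434 and 804 counts in ESCs and 114 and 98 in NECs. In glutamate synthesis and transport, the transporters SLC1A6 (log2FC 1.88, SE 0.30) and SLC17A7 (1.79, SE 0.40) were higher and the transporter SLC1A1 (-2.93, SE 0.15) was lower, with 9 genes tested.

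Proteins that associate with ionotropic glutamate receptors had 8 genes higher and 4 lower of 24 tested. The AMPA receptor auxiliary subunits CACNG7 (log2 fold change 4.13, SE 0.25), CACNG8 (3.19, SE 0.31), CNIH2 (1.75, SE 0.22) and SHISA6 (1.59, SE 0.34) were higher. So were the synaptic scaffolds SHANK1 (4.80, SE 0.29) and SHANK3 (1.59, SE 0.18) and the pentraxins NPTX2 (2.71, SE 0.18) and NPTXR (2.55, SE 0.16). CACNG7 had 190 and 138 counts in ESCs and 3029 and 3183 in NECs. SHISA9 (-2.83, SE 0.16), the kainate auxiliary subunit NETO1 (-1.84, SE 0.25) and CBLN1, given above, were lower, and CACNG5 had 18 and 18 counts in ESCs and 0 and 0 in NECs.

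Scaffolds of metabotropic glutamate receptors had 3 of 5 tested genes higher, NECAB2 (log2 fold change 4.34, SE 0.15), HOMER3 (2.91, SE 0.12) and GRASP (1.77, SE 0.35), and none lower. Genes that cluster or traffic GABA-A and glycine receptors had PLCL1 (log2FC 3.39, SE 0.90) and SHISA7 (1.95, SE 0.48) higher and LHFPL4 (-1.88, SE 0.45) lower of 13 tested. The nicotinic modulators LYNX1 (log2FC 2.12, SE 0.21) and TMEM35 (1.93, SE 0.17) were higher, of 8 tested. Of the cholinesterases, BCHE (log2FC 2.81, SE 0.24) was higher and ACHE (-2.63, SE 0.28) lower, the only calls among 5 tested genes of glycine and acetylcholine handling. Among the 6 chloride cotransporters, SLC12A5 (log2FC 1.76, SE 0.31), which keeps neuronal chloride low so that GABA inhibits, was higher at 44 and 57 counts in NECs against 12 and 16, and SLC12A1 (-3.0, SE 0.52) was lower. SLC12A2, which loads chloride and so opposes SLC12A5, was at 21.9 ± 1.30 CPM in ESCs and 23.4 ± 1.15 in NECs and was not called.

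To ask which regions the receptor promoters contacted, PCHi-C interactions were read from lists of HindIII fragment pairs with a CHiCAGO score of at least 12. A CHiCAGO score is a p-value on a negative log scale, with a weight for the distance between the fragments. The promoter of a gene was the baited fragment that holds its start in the count table (GRCh37), and a promoter-interacting region (PIR) was the fragment at the other end. A start lay in a bait for 62 genes, in 61 baits because GABRA4 and GABRB1 share one, out of 21833 baits in all. CHRNA6, CHRNA7, GABRR1, GRM5 and GRM7 had none. For 11 of the 62 the canonical GENCODE start lies outside the bait used, among them GABRP, GRIA1 and GRM4. The lists give scores without read numbers, and the depth of each call is unknown.

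Receptor baits had a median of 4 and 3 PIRs in ESC and 5 and 3 in NEC replicates, against 3 in each for all baits. In the merged lists, in which the authors scored both replicates of a cell type together, they had 340 PIRs in ESCs and 337 in NECs. The median distance from bait to PIR was 230.9 kb (ESCs) and 308.6 kb (NECs), against 196.5 and 217.4 kb over all baits. The PIR was itself a baited promoter in 28.8% and 28.2% of the pairs, against 31.6% over all baits in both cell types. With 2 replicates against 2, an exact permutation test cannot give p below 0.333, so PIR numbers are set beside the difference between replicates.

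Both NEC replicates had more PIRs than both ESC replicates at 8 of 61 receptor baits (13.1%), where 13.1% of all baits did. Fewer PIRs in both NEC replicates were found at 8 baits (13.1%), where 12.8% of all baits did, so receptor baits were near the background in both directions. With 1 replicate of a cell type left out the condition is looser, and the numbers were 18 with more and 11 with fewer without ESC replicate 1, 15 and 19 without ESC replicate 2, 14 and 20 without NEC replicate 1, and 24 and 10 without NEC replicate 2. The baits with more were those of CHRNA1, CHRNA2, GABRA6, GABRG1, GABRG3, GRIK3, GRIK4 and GRM4, and those with fewer were CHRNA10, CHRNA3, GABRE, GRIA2, GRIA4, GRIK2, GRIN1 and GRIN2A. Only GRIK3 and GABRG3 among the first, and only GRIN2A among the second, also had a called expression change in the same direction, and GRM4 had one in the opposite direction. The bait used for GABRA6 holds the canonical start of GABRB2, which was called lower, and not that of GABRA6. In the merged lists the baits of GRIA4 and GRIK2 went the other way, each with 1 PIR in ESCs and 2 in NECs. There the CHRNA2 bait had 2 PIRs in each cell type and the GABRG1 bait had 0 in each.

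**Figure D3:**
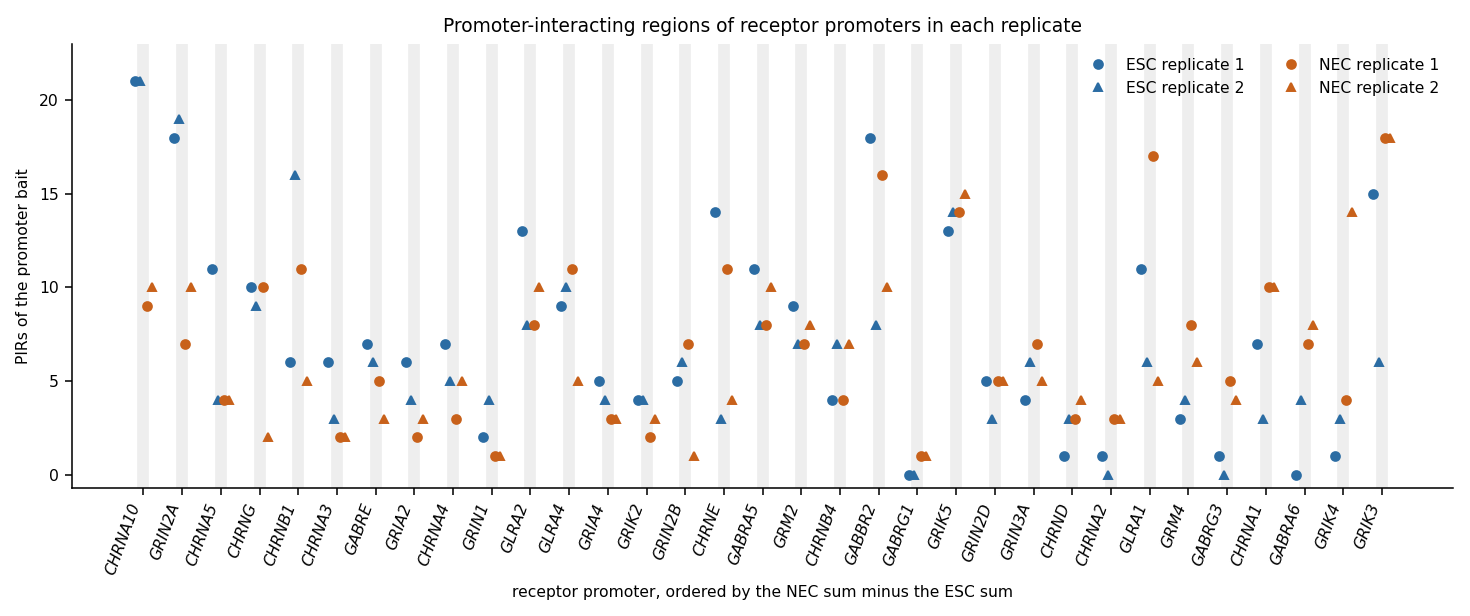
Number of PIRs in each PCHi-C replicate for 33 receptor promoters with a gained or lost interaction, with non-overlapping cell types or among those with the most PIRs (circles, replicate 1; triangles, replicate 2; ESCs in blue, NECs in orange), ordered by the sum in NECs minus the sum in ESCs. CHRNA10 and GRIN2A, at the left, have 18 to 21 PIRs in ESCs and 7 to 10 in NECs, and at many other promoters the replicates of one cell type differ as much as the cell types.

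The largest numbers of PIRs belonged to CHRNA10, GABBR2, GRIN2A, CHRNA5 and, level with GRIN2C, CHRNE in ESCs, and to GLRA1, GRIK3, CHRNA10 and GABBR2 in NECs. The CHRNA10 promoter had 21 and 21 PIRs in ESC and 9 and 10 in NEC replicates, a difference larger than that between replicates. Its 3 lost interactions, all within the neighbouring gene NUP98, lay 38, 57 and 65 kb from the bait with merged scores of 18.53, 20.90 and 15.28, while its expression was 1.29 ± 0.05 and 1.22 ± 0.40 CPM. An interaction was lost where both ESC replicates and neither NEC replicate held it and the merged NEC list did not, and gained in the reverse case. Fragments were compared one by one, so a neighbouring fragment may be held in the other cell type.

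The GRIN2A promoter (bait chromosome 16, 10265402 to 10280227) had 18 and 19 PIRs in ESCs against 7 and 10 in NECs, in the same direction as its transcript. Its strongest interaction, with an intergenic fragment 918 kb away (9351159 to 9357532), was held in all 4 replicates, with scores of 19.61 and 20.27 in ESCs and 19.69 and 24.10 in NECs. No GRIN2A interaction met the definition of lost. GABBR2, also called lower in expression, had 18 and 8 PIRs in ESCs against 16 and 10 in NECs, which overlap. It kept 2 interactions in all 4 replicates at 398 and 382 kb, both within its own gene, with merged scores of 14.26 and 15.03 in ESCs and 22.56 and 19.87 in NECs.

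Over the 61 receptor baits 28 interactions were gained, at 19 baits (31.1%), where 17.8% of all baits had a gained interaction. In the other direction 14 were lost at 11 baits (18.0%), where 19.0% of all baits had a lost one. At a score of at least 15 only 3 were gained and 4 lost. The definition also rests on having both replicates: 176 were gained without NEC replicate 1 and 241 without NEC replicate 2, and 179 were lost without ESC replicate 1 and 214 without ESC replicate 2. Each replicate held 272 to 358 interactions of these baits, and 1065 different ones were in at least 1 list. All 4 replicates shared 23 of them. The same share was not computed over all baits.

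Glycine receptor promoters held some of the strongest interactions. At GLRA1 the replicates overlapped in number, with 11 and 6 PIRs in ESCs against 17 and 5 in NECs. An intergenic fragment 217 kb away (chromosome 5, 151519460 to 151523195) was contacted in all 4 replicates, with scores of 15.34 and 12.97 in ESCs and 18.94 and 22.09 in NECs, so that both NEC scores were above both ESC scores. Its neighbours on both sides, at 214 and 219 kb, were gained with merged scores of 18.58 and 21.98, and a further fragment at 278 kb was gained with 15.07. The GLRA1 transcript was one of those called higher.

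The embryonic subunit GLRA2 had fewer than 10 counts in every library, and its promoter held 3 adjacent interactions at 429 to 442 kb in all 4 replicates. The middle one (chromosome X, 14108836 to 14114360) had scores of 20.39 and 14.07 in ESCs and 28.97 and 42.93 in NECs, and its merged score of 40.37 in NECs was the highest of any receptor promoter. Further GLRA2 interactions were gained at 410 and 615 kb, and 1 was lost at 374 kb. GLRA4 kept 3 interactions in all 4 replicates, one of them with the TMEM31 promoter at 15 kb, and lost 1 with the promoter of RAB40A. GLRB, higher in expression, had 7 and 2 PIRs in ESCs against 3 and 2 in NECs.

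**Figure D4:**
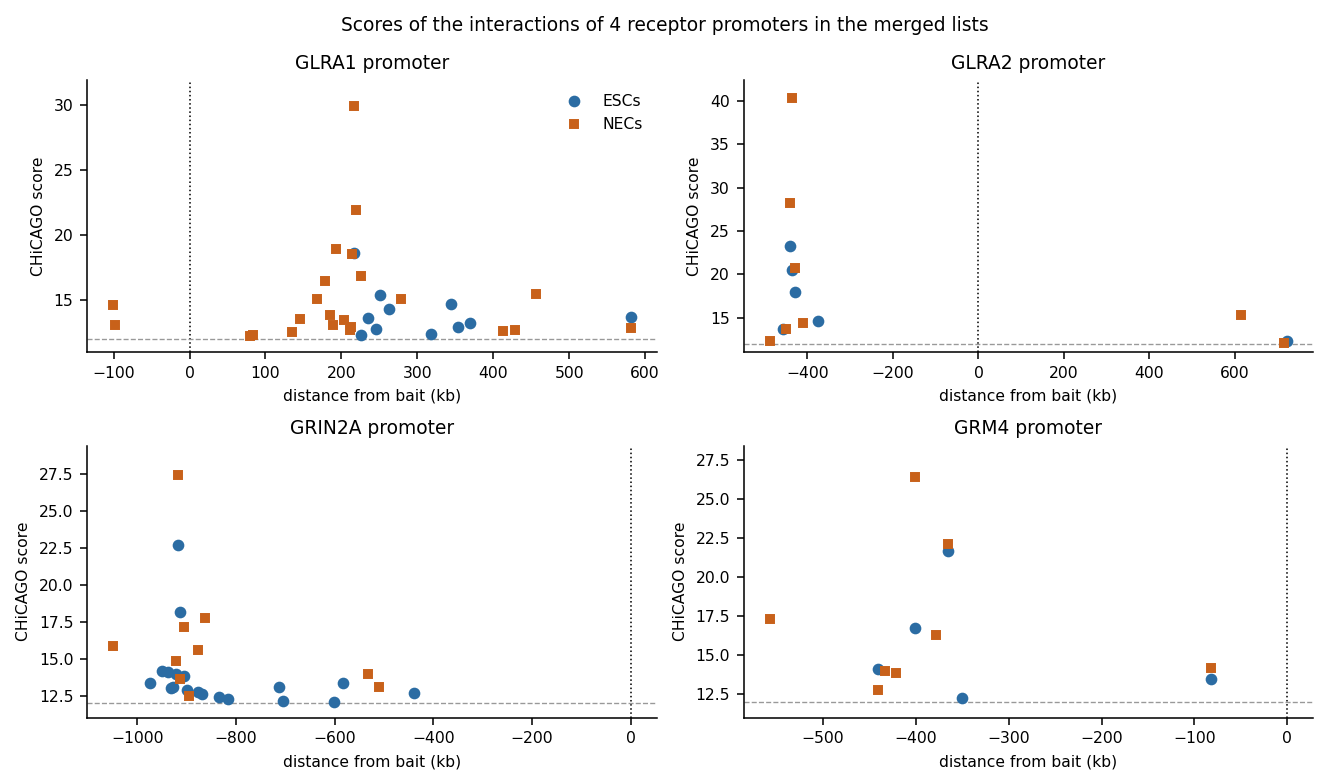
CHiCAGO score of each interaction of the GLRA1, GLRA2, GRIN2A and GRM4 promoters in the merged ESC (blue circles) and NEC (orange squares) lists, against the distance of the PIR from the bait in kb along the chromosome; the dotted line is the bait, the dashed line is the threshold of 12, and the axes differ between panels. The strongest fragments of GLRA1 (score 29.91), GLRA2 (40.37) and GRIN2A (27.38) in NECs are also in the ESC lists with lower scores.

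Among glutamate receptor promoters, GRIK3 had 15 and 6 PIRs in ESCs against 18 and 18 in NECs, mostly 320 to 518 kb away with no protein-coding gene in them, and 1 gained at 475 kb. GRIK3 was called higher in expression. GRIK4 gained 2 interactions, at 121 kb within its own gene and at 685 kb, with 1 and 3 PIRs in ESCs against 4 and 14 in NECs, and its transcript was not called.

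GRM4, the metabotropic gene lower in NECs, gained 3 interactions, at 378, 433 and 558 kb, with merged scores of 16.31, 13.98 and 17.34, and had 3 and 4 PIRs in ESCs against 8 and 6 in NECs. Its contact with the LEMD2 promoter at 365 kb was held in all 4 replicates (merged scores 21.71 and 22.13), and its contact with the IP6K3 promoter at 401 kb had merged scores of 16.74 in ESCs and 26.43 in NECs. GRIK5 kept 4 interactions in all 4 replicates, all with other baited promoters, among them those of POU2F2 and CNFN, and gained 2, with the promoters of CD79A and LIPE. Single interactions were gained at GRM2 (95 kb away), GRIA2 (782 kb), GRIK2 (735 kb) and GRIN3A (1425 kb), and single ones were lost at GRIN2B (1062 kb, within GPRC5A) and GRIN2D (225 kb, with the promoters of FAM83E and SPACA4).

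Among GABA-A promoters, GABRA5 gained 2 interactions, at 934 and 928 kb, and lost 1 at 576 kb, with 11 and 8 PIRs in ESCs against 8 and 10 in NECs. The bait used for GABRA6, a gene with no counts, gained 1 at 1043 kb, with 0 and 4 PIRs in ESCs against 7 and 8 in NECs. These PIRs can equally be read as those of GABRB2, lower in expression, whose canonical start this fragment holds. GABRG3, higher in expression, had 1 and 0 PIRs in ESCs against 5 and 4 in NECs, but none of them met the definition of gained. GABRP, the most changed of the tested receptor genes, had few, with 2 and 1 PIRs in ESCs against 4 and 1 in NECs.

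Nicotinic promoters held 9 of the 14 lost interactions, 3 of them at CHRNA10 and 2 at CHRNG. CHRNA10 alone had 38 of the 340 PIRs of receptor baits in the merged ESC list. Losses were not scaled to the number of PIRs, so no trait of the family is read from this count. CHRNG lost contacts with the NPPC promoter at 618 kb and with a baited fragment at 47 kb (scores 15.18 and 15.49 in the ESC replicates) and gained one at 535 kb within DIS3L2, and CHRND gained 1 at 632 kb. Beside the gained CHRND fragment, the one at 638 kb had a score of 13.09 in ESC replicate 2. CHRNA1, at 0 and 0 counts in ESCs and 1 and 1 in NECs, gained contacts at 221 kb within CHN1 and at 1318 kb with the promoter of the homeobox gene EVX2. The fragment that adjoins the one at 221 kb was in both merged lists, with 12.71 in ESCs and 12.49 in NECs. CHRNA4 lost 1 at 195 kb and kept 1 at 47 kb (merged scores 24.65 and 20.94), and CHRNB1 lost 1 at 238 kb, in a fragment of the synaptic scaffold gene DLG4. CHRNE kept its contact with the promoters of CXCL16 and ZMYND15 at 165 kb, with merged scores of 19.29 and 32.17, and CHRNB3 kept 1 at 116 kb.

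In the cluster of CHRNA5, CHRNA3 and CHRNB4, the IREB2 promoter fragment (chromosome 15, 78728639 to 78742628) was lost from CHRNB4, 206 kb away, with scores of 13.21 and 15.18 in the ESC replicates. The same fragment was gained by CHRNA3, 174 kb away, with 12.10 and 13.41 in the NEC replicates. CHRNA5 lost a contact with a fragment of IREB2 at 96 kb, CHRNB4 gained 1 at 329 kb within RASGRF1, and CHRNB4 kept its contact with the promoters of ADAMTS7 and MORF4L1 at 161 kb in all 4 replicates.

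Contacts between promoters of the same receptor gene cluster were read from the same lists, without a share for other promoter pairs at like distance. Of 24 pairs of genes in 8 clusters, contact could be read for 21, and 3 of these were in contact in a merged list, among them CHRNA5 with CHRNB4, with scores of 12.36 in ESCs and 15.41 in NECs, and CHRNA5 with CHRNA3, with 12.34 in ESCs only. Each pair was held by at most 1 replicate of a cell type. No contact was called between GABRA5 and GABRG3, between CHRND and CHRNG, or among GABRG1, GABRA2 and the bait that GABRA4 and GABRB1 share. The pair of GABRA4 and GABRB1 could not be read, since 1 fragment holds both starts. GABRE and GABRQ were in contact in NEC replicate 2 only (13.42), and GABRA3 contacted neither. GABRR2 had 4 and 2 PIRs in ESCs against 4 and 7 in NECs, and its pair with GABRR1 could not be read, nor could that of CHRNB3 with CHRNA6, since GABRR1 and CHRNA6 had no bait.

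**Figure D5:**
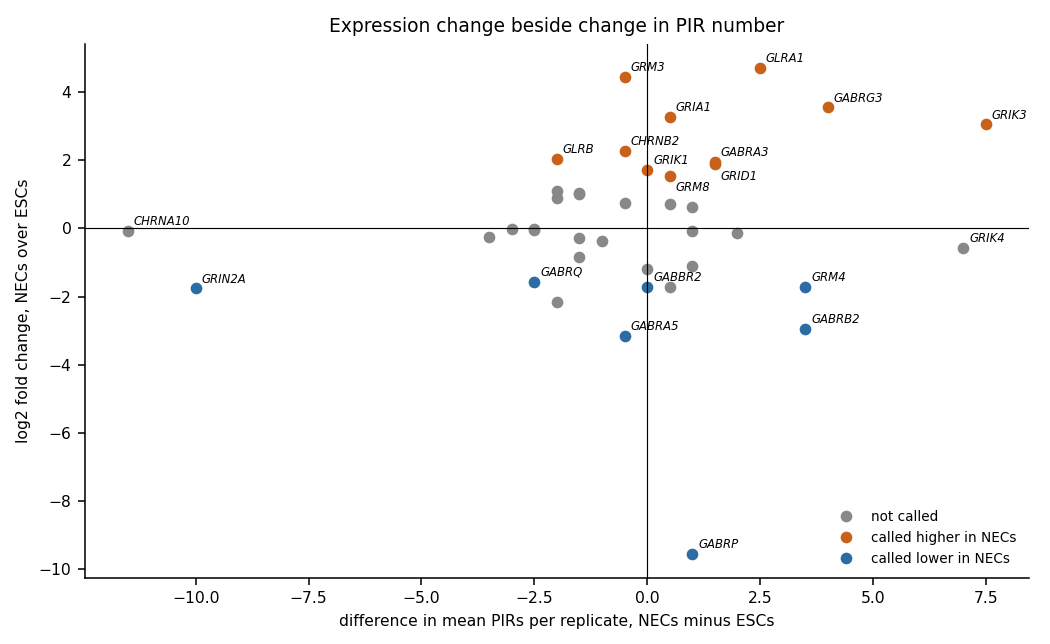
Log2 fold change of expression (NECs over ESCs) against the difference in mean PIR number per replicate (NECs minus ESCs) for 40 of the tested receptor genes with a bait, in orange for genes called higher, blue for genes called lower and grey for genes not called. Genes called higher lie on both sides of 0, up to 7.5 more PIRs for GRIK3, and GRIN2A, called lower, has 10 fewer PIRs.

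Set side by side over the 43 tested genes with a bait, mean PIR numbers were higher in NECs for 8, lower for 3 and equal for 1 of the 12 genes called higher, with a median difference of 1.0 PIR. They were higher for 4, lower for 4 and equal for 1 of the 9 called lower with a bait, with a median of 0.0. Of the 22 not called, 7 had more, 14 fewer and 1 the same number in NECs, with a median of -1.5. The libraries of the assays are different samples, and no relation was tested.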

How the data were processed

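The RNA-seq values were raw read counts per gene, as deposited. The authors trimmed the reads, mapped them to GRCh37 with TopHat (the submitters' processing notes name TopHat2 2.0.8b and Bowtie 1.0.0) and counted them in SeqMonk on Ensembl gene models without regard to strand, so reads of overlapping genes cannot be separated. Of the 67 receptor genes 33 overlap another counted gene, and for 17 of these it had at least 10 counts in a library. The PCHi-C values were CHiCAGO scores, which the authors computed between HindIII fragments of GRCh37 and deposited where they reached 12, for each replicate and for both replicates of a cell type combined. The Hi-C samples of the series were not used here.

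Samples were grouped by their labels. Genes were filtered with filterByExpr (minimum count 10), scaled by TMM and tested with edgeR 4.0.16 (quasi-likelihood test, prior count 0.125, Benjamini-Hochberg adjustment over 17564 genes) in R 4.3.3. On simulated data with 200 changed genes of 17564 in this comparison, edgeR recovered 198 with 1 false call. The simulation gave all genes the same dispersion and changed only well-counted genes, by more than the fold change threshold. It therefore does not show how reliable calls are for genes with few counts, changes near the threshold or a wide spread between replicates. Alternatives were DESeq2 1.42.0 (recovering 198, or 110 with shrunken fold changes), other scaling, filters and prior counts, a replicate block, other score and distance limits, and each replicate left out. Per-kilobase levels used merged exon length. Ratios and floors of few counts cover counting error only. PIRs, joins and figures were made in Python 3.11.15 with pandas 2.3.3, scipy 1.17.1 and matplotlib 3.10.9.

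Receptor genes, gene lists and clusters were chosen with earlier results of these data known. Named were all called genes, uncalled ones with a mean of at least 1 CPM in a cell type, genes of the clusters, the promoters with the most PIRs in each merged list or with a gained or lost interaction, and called genes of the pathway lists. GRIN3A, GLRA4, CHRNA9, GRIN1, GRIN2C, GABRD, GRM6, SLC12A2 and the genes that overlap or lie in a PIR were added after their values were seen. Some genes and contacts that these rules would name are not reported here, although the counts over all genes include them.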

Additional observations from a re-analysis of the deposited data

How the results depend on the processing

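Of the 22 called receptor genes, 13 were tested and called under every alternative (8 higher, 5 lower), and none changed direction where tested. GABRR1 and GLRA1 were called wherever they were tested, but a minimum count of 30 left them untested, as did, for GABRR1, leaving out ESC replicate 1. That minimum gave 9 higher and 9 lower. Of the other 7, the values of GABBR2, GABRQ, GRIK1, GRIN2A, GRM4 and GRM8 are given with each gene. With 1 RNA-seq library left out, 10 to 11 receptor genes were called higher and 7 to 11 lower. Calls were gained for CHRNA9, GABRA2, CHRNB4 and GRIN3A under at least 1 alternative. Replicate numbers did not pair the libraries (correlation of their deviations 0.061), and a fit with the replicate block also called 12 higher and 10 lower. With no fold change threshold, 19 receptor genes were higher, and 39 pathway genes were higher and 20 lower.

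Log2 fold changes near 0 reversed for genes that were not called. With library size alone they were 0.044 for CHRNB1 and 0.042 for GABRE. Leaving out each library gave -0.46 to 0.23 for CHRNA10, -0.16 to 0.027 for CHRNA3, -0.15 to 0.098 for CHRNB1, -2.65 to 0.84 for GABRA2, -0.12 to 0.053 for GABRE and -0.48 to 0.27 for GRIN2D.

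At a score of at least 15, receptor baits had 87 PIRs in ESCs and 103 in NECs, 3 baits had fewer PIRs in both NEC replicates, 3 interactions were gained, 4 were lost, and 1 pair of genes in a cluster was in contact. With PIRs within 10 kb counted as shared, 31 interactions were gained and 27 lost. This setting also lets the 2 replicates of a cell type match within 10 kb, which admits more pairs. With PIRs that are baits left out, 5 baits had fewer PIRs in both NEC replicates, 7 interactions were lost and 0 pairs in clusters were in contact, as such contacts are between baits. Leaving out each replicate, which loosens these definitions, gave 14 to 24 baits with more and 10 to 20 with fewer PIRs, 37 to 241 gained and 27 to 214 lost interactions. The cause of the other changes was not tested. Low counts kept 22 receptor genes out of the tests, and 2 replicates a group limited all tests.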
